A study of Mus musculus with 22 samples.

Results

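The 7 genes described here are proapoptotic effectors of p53: Bax, Bbc3, Pmaip1, Apaf1, Aen, Trp53inp1 and Perp. They were chosen by name for their place in the pathway, with earlier results of these data known. Counts of called members beside the share of all genes are therefore a description. All 7 were found among the 55291 genes of the deposited table, passed the filter on low counts and were tested in each of the 15 comparisons between groups. RNA was sequenced from 22 livers of male wild-type C57BL/6 mouse pups that received an intravenous injection on postnatal day 1 and were killed 36 hours later. PBS alone was given to 4 pups, and AAV9.empty, the adeno-associated virus serotype 9 capsid without a vector genome, to 4. The other groups received AAV9 with a packaged genome: EGFP under the CB promoter (AAV9.EGFP, n = 4), human ST3GAL5 under the CB promoter (v1, n = 3), human ST3GAL5 under the CB promoter with E332K added to its name (the E332K vector, n = 3), or human ST3GAL5 under the neuronal Syn1 promoter with binding sites for the hepatocyte microRNA miR-122 (v2, n = 4). ST3GAL5 is the enzyme that makes the ganglioside GM3. CB is active in most cell types, whereas the promoter and the microRNA sites of v2 were built to keep its transgene low in liver. The labels do not say what E332K does to the enzyme, and they give neither doses nor litters. The study's methods state 1 dose of vector genomes per pup for facial-vein injection on that day. A p-value here sets the difference between 2 groups against the spread of livers within them. Since litters are not given, livers of a group may not be independent, and whether litters differed between groups is not known.

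p53 is a transcription factor that is stabilized by DNA damage and other stress and raises genes of growth arrest, DNA repair and cell death. Death through mitochondria is set by the BCL2 family: the BH3-only proteins encoded by Bbc3 (PUMA) and Pmaip1 (NOXA) occupy antiapoptotic members, BAX then opens the outer mitochondrial membrane, and released cytochrome c assembles with APAF1 into the apoptosome, which activates caspases. Aen encodes a nuclease, Trp53inp1 a stress-induced nuclear cofactor of p53, and Perp a membrane protein of cell junctions that also takes part in p53-dependent death.

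The members lie on 4 chromosomes in the mouse genome GRCm38 with the GENCODE vM21 annotation, and all 7 are protein-coding. Bax (chr7:45461697-45466898, minus strand), Bbc3 (chr7:16308393-16318205, plus strand) and Aen (chr7:78895854-78911209, plus strand) are on chromosome 7. Apaf1 (chr10:90989311-91082770, minus strand) and Perp (chr10:18845020-18857073, plus strand) are on chromosome 10. Trp53inp1 is at chr4:11156431-11174379 on the plus strand, and the position of Pmaip1 is given with its values. Bax shares 192 of its 1576 exon bases with Gm45808 on the same strand, whose summed count was 0.277% of that of Bax.

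Promoters from RefSeq (GRCm38.p6, 250 bases before to 50 after a transcription start) were found for Bax, Bbc3, Aen and Apaf1, and not for Pmaip1, Perp and Trp53inp1. They were searched on both strands for the 10-base p53 half-site, which 8.36% of the 32851 promoters in the same table hold. Bax held a match in its 1 promoter, and Aen held 1 match that lies in both of its overlapping promoters. The 3 promoters of Bbc3 and the promoter of Apaf1 held none. The promoter of Bax (chr7:45466849-45467148, minus strand) and a promoter of Aen (chr7:78895808-78896107, plus strand) are shown because they held a match. Both genes were higher with every vector that carried a genome, as was Bbc3, whose promoters held none. Capitals mark the half-site, at chr7:45467090-45467099 in Bax and chr7:78895937-78895946 in Aen. Such a match is a stretch of letters, and binding there was not measured.
Bax promoter: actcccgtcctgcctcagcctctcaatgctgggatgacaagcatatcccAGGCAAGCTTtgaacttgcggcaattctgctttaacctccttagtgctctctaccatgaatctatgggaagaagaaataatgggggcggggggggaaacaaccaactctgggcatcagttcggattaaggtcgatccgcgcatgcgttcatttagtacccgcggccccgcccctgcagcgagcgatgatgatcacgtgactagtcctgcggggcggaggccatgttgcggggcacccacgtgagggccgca
Aen promoter: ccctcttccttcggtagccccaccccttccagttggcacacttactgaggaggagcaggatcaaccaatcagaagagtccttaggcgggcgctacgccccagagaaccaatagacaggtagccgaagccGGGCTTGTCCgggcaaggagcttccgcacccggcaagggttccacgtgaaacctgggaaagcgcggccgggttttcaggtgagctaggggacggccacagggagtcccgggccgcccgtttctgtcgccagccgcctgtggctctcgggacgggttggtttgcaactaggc

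The libraries held 17164502 to 24305788 counts, and levels are given as CPM, counts relative to library size, with library sizes scaled by the trimmed mean of M values (TMM). A gene was called in a comparison at an adjusted p of at most 0.05 in edgeR's quasi-likelihood test, with Benjamini-Hochberg adjustment over all genes tested. The share of all genes called is given beside the members' first count in each comparison, since it ranged from 0.311% to 28.1%. The hepatocyte identity of the tissue was plain, with a summed level of 12 hepatocyte markers of at least 95385 CPM in every library. Gm47283, a gene annotated on the Y chromosome, had no count in 9 of the 22 libraries: all 3 of v1, 3 of AAV9.EGFP, 2 of v2 and 1 of AAV9.empty. What divides the libraries in this way was not tested. The library least like its group was v1 replicate 2, with a mean correlation of 0.972 with the other v1 livers.

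Levels of different genes were compared in TPM, the deposited abundance that takes transcript length and depth into account. Bax had the highest mean TPM of the 7 members in every group and Pmaip1 the lowest. In PBS livers the mean TPM was 54.0 ± 6.23 (SD, n = 4) for Bax, 28.6 ± 3.31 for Perp and 11.4 ± 1.24 for Aen. Apaf1, Bbc3 and Trp53inp1 followed at 5.45 ± 0.850, 5.03 ± 1.53 and 4.80 ± 1.39 TPM, and Pmaip1 was at 1.47 ± 0.632 TPM. The pore-forming BAX was thus encoded by the most abundant transcript of the set and the BH3-only protein NOXA by the scarcest, while Bbc3 lay near Apaf1 and Trp53inp1. Summed over the members, mean TPM was 111 in PBS and 113 in AAV9.empty livers. It was 185 in AAV9.EGFP, 213 in v2, 244 in E332K and 246 in v1 livers. The order within the set also moved: mean TPM of Aen was above that of Perp in v2, E332K and v1 livers, and that of Trp53inp1 was above that of Apaf1 in the 4 groups with a vector genome and below it in the 2 without.

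**Figure D1:**
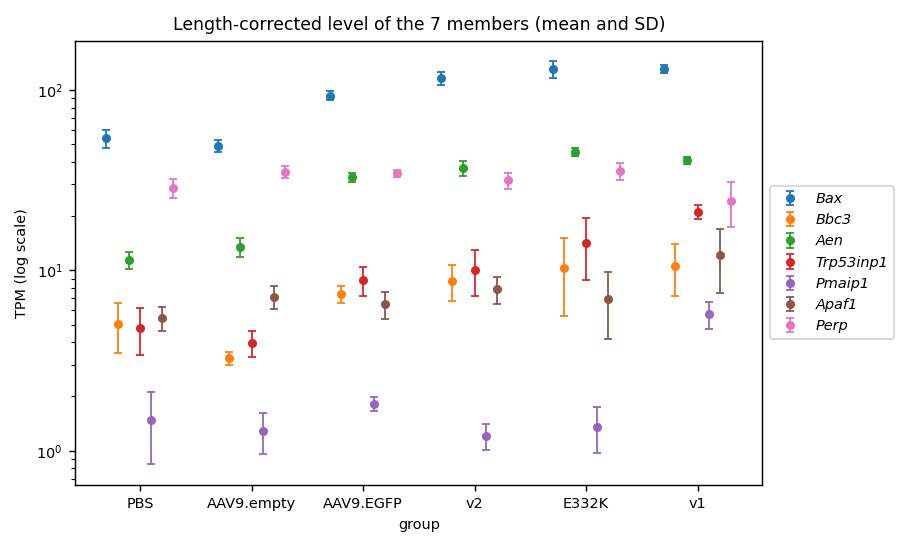
Mean TPM of each member (log axis) in the 6 groups, with whiskers for the SD over 4, 4, 4, 4, 3 and 3 livers from left to right. Bax is the highest member in all groups, from 49.2 to 132 TPM, and Pmaip1 the lowest, from 1.21 to 5.72 TPM.

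The empty capsid was compared with PBS to ask whether the capsid alone moved the members. None of the 7 was called, where 0.311% of all genes were, and DESeq2 also called 0. Bbc3, Perp and Aen had the smallest unadjusted p (edgeR) of the 7. Bbc3 was at 3.18, 3.35, 3.78 and 3.79 CPM in AAV9.empty livers and at 4.45, 5.90, 5.48 and 5.03 CPM in PBS livers. These groups did not overlap, but the log2 fold change of -0.57 (SE 0.18) had an adjusted p of 0.190 (edgeR). Aen also did not overlap, at 24.9 ± 0.930 CPM in AAV9.empty and 22.01 ± 0.658 CPM in PBS livers (SD, n = 4 each, adjusted p = 0.383, edgeR). Of all genes, 6.96% did not overlap in this comparison. Perp differed by 0.25 (SE 0.10) on the log2 scale, with an adjusted p of 0.294 and overlapping groups. For the other 4 members the 95% intervals of the log2 fold change lay between -0.64 and 0.43.

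Bax, Bbc3, Aen and Trp53inp1 were higher with each of the 4 vectors that carried a genome, against AAV9.empty and against PBS. Against AAV9.empty, the 4 genes were all the members called with AAV9.EGFP (4 of 7, beside 0.442% of all genes), with v2 (4 of 7, beside 5.38%) and with the E332K vector (4 of 7, beside 15%). With v1 all 7 members were called, 6 higher and 1 lower, beside 28.1% of all genes. These 4 comparisons share the AAV9.empty livers. In bulk liver, fewer cells of a type and less RNA per cell cannot be told apart, so each value is a level in the whole organ.

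Bax, the pore-forming effector, was at 30.4, 29.2, 24.8 and 26.9 CPM in the 4 AAV9.empty livers and at 32.9, 28.4, 34.8 and 27.2 CPM in the 4 PBS livers. It was at 54.6, 58.8, 54.2 and 53.7 CPM with AAV9.EGFP, at 63.3, 72.4, 70.3 and 78.6 CPM with v2, at 74.8, 77.0 and 91.3 CPM with the E332K vector and at 67.1, 76.8 and 67.3 CPM with v1. Every liver with a vector genome was above every liver without one. Against AAV9.empty the log2 fold change was 0.99 (SE 0.07) with AAV9.EGFP, 1.36 (SE 0.09) with v2, 1.53 (SE 0.10) with E332K and 1.35 (SE 0.09) with v1. The adjusted p (edgeR) was 5.18e-06, 5.65e-06, 1.71e-06 and 6.78e-05 in that order. Against PBS the fold changes were 1.80, 2.32, 2.64 and 2.30 in the same order of vectors, and Bax was called in each.

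Aen, the nuclease gene, lay between 21.2 and 22.7 CPM in PBS livers, between 24.1 and 26.2 CPM in AAV9.empty livers and between 57.9 and 63.0 CPM in AAV9.EGFP livers. With v2 it was at 67.1, 71.7, 70.3 and 83.7 CPM, with the E332K vector at 85.2, 83.5 and 97.3 CPM and with v1 at 68.7, 66.5 and 70.3 CPM. The gap between the highest liver without a genome and the lowest with one was wider than the whole range of either control group. Against AAV9.empty the fold changes were 2.46, 2.95, 3.53 and 2.77 with AAV9.EGFP, v2, E332K and v1. The largest adjusted p of these (edgeR) was 1.22e-05, for v1. Against PBS they were 2.80, 3.34, 4.05 and 3.14.

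Trp53inp1, the p53 cofactor, was at 18.9, 14.8, 19.9 and 20.9 CPM in AAV9.empty livers and more widely spread in PBS livers, at 16.0, 20.2, 27.3 and 27.9 CPM. It was at 42.8, 51.6, 38.9 and 34.0 CPM with AAV9.EGFP and at 83.3, 102.9 and 86.8 CPM with v1. With v2 it was at 41.7 and 36.5 CPM in the 2 livers with Gm47283 counts and at 64.6 and 62.3 CPM in the 2 without. With the E332K vector it was at 62.6, 95.4 and 54.2 CPM, the second liver standing apart. Even so, no liver with a vector genome fell to the level of a liver without one. The log2 fold change against AAV9.empty was 1.17 (SE 0.13) with AAV9.EGFP, 1.47 (SE 0.18) with v2, 1.91 (SE 0.18) with E332K and 2.30 (SE 0.13) with v1. The largest adjusted p among them (edgeR) was 0.000868, for v2. Against PBS the fold changes were 1.84, 2.26, 3.12 and 4.01, all called.

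Bbc3, which encodes PUMA, was scarcer. Against the AAV9.empty and PBS values given above, of at most 5.90 CPM, it was at 6.56, 8.20, 8.96 and 8.43 CPM with AAV9.EGFP and at 9.76, 15.7, 11.3 and 13.4 CPM with v2. With v1 it was at 11.98, 10.9 and 14.9 CPM, and with the E332K vector at 8.81, 21.3 and 15.3 CPM. The 3 E332K livers thus spanned more than the other groups, although all lay above the livers without a genome. The log2 fold change against AAV9.empty was 1.19 (SE 0.15) with AAV9.EGFP, 1.84 (SE 0.17) with v2, 2.09 (SE 0.24) with E332K and 1.85 (SE 0.15) with v1. The largest adjusted p of these (edgeR) was 0.000960. Because PBS livers were higher than AAV9.empty livers, the values against PBS were smaller, at 0.63, 1.27, 1.54 and 1.28. The first of these had an adjusted p of 0.0328 and was lost in 5 of the 8 fits that left out 1 liver (without PBS replicate 3 or 4, or AAV9.EGFP replicate 2, 3 or 4).

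Against PBS, the same genes accounted for most of the counts. With AAV9.EGFP 4 of 7 members were called (3.7% of all genes), of which Aen passed 2-fold (0.564% of all genes), with v2 4 (2.9%), with the E332K vector 5 (11.3%) and with v1 6 (25.1%). The fifth with the E332K vector was Perp, at 1.33-fold with an adjusted p of 0.0386 (edgeR). That call was lost in 6 of 7 fits with 1 liver left out, all but the one without PBS replicate 1. These comparisons share the PBS livers.

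**Figure D2:**
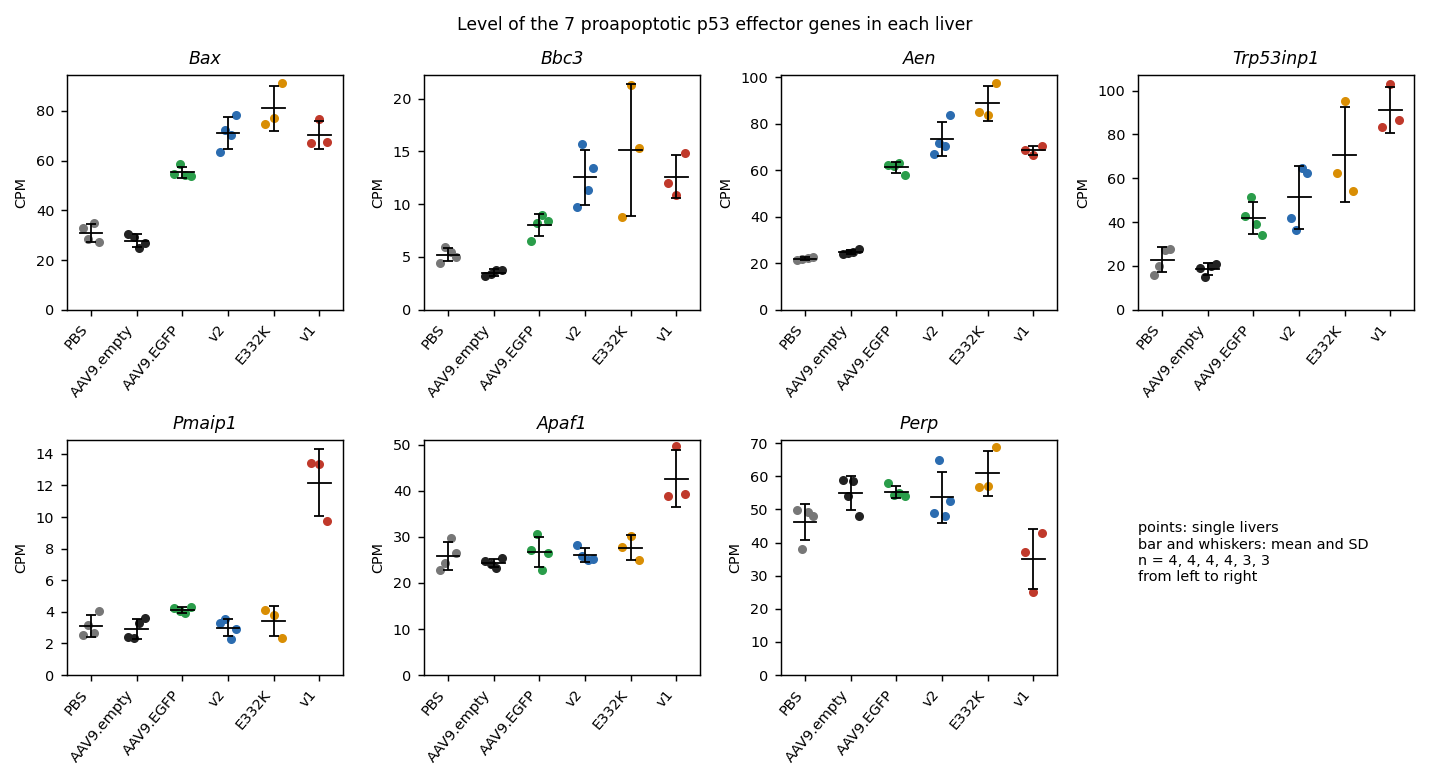
CPM of each member in every liver (points), with the mean and SD of each group, in PBS, AAV9.empty, AAV9.EGFP, v2, E332K and v1 livers from left to right. Bax, Bbc3, Aen and Trp53inp1 are higher in all 4 groups with a vector genome, Pmaip1 and Apaf1 in v1 alone, where Perp is lower.

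The remaining 3 members differed from AAV9.empty with v1 alone. Pmaip1 (chr18:66458533-66465565, plus strand), which encodes NOXA, was at 2.38, 2.35, 3.29 and 3.64 CPM in AAV9.empty livers and at 2.52, 3.18, 2.67 and 4.07 CPM in PBS livers. It was at 4.26, 4.04, 3.92 and 4.34 CPM with AAV9.EGFP, at 3.31, 3.54, 2.26 and 2.93 CPM with v2 and at 4.10, 3.79 and 2.33 CPM with the E332K vector. In v1 livers it was at 13.4, 13.4 and 9.74 CPM, and the lowest of these was above the highest of all 19 other livers. The log2 fold change of v1 against AAV9.empty was 2.07 (SE 0.20), with an adjusted p of 0.000219 (edgeR). For AAV9.EGFP it was 0.51 (SE 0.19) with an adjusted p of 0.306, and for v2 and E332K it was 0.05 and 0.22, with 95% intervals of -0.45 to 0.55 and -0.34 to 0.79.

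Apaf1, the apoptosome gene, was nearly level in 5 groups. It lay between 23.2 and 25.4 CPM in AAV9.empty, between 22.8 and 29.8 CPM in PBS, between 22.7 and 30.6 CPM in AAV9.EGFP, between 24.9 and 28.1 CPM in v2 and between 24.9 and 30.3 CPM in E332K livers. In v1 livers it was at 38.9, 49.7 and 39.3 CPM, above all others. The fold change of v1 against AAV9.empty was 1.77 (adjusted p = 0.000713, edgeR) and against PBS 1.66 (adjusted p = 0.00300). The increases against AAV9.empty with AAV9.EGFP, v2 and E332K were at most 0.18 on the log2 scale, and their 95% intervals ended at 0.38 or below. In TPM the v1 livers were spread from 7.58 to 17.01 and overlapped those of AAV9.empty, v2 and E332K, but not those of PBS and AAV9.EGFP. With limma on log2(TPM + 1) the call of v1 against AAV9.empty was lost (adjusted p = 0.0822), while those against PBS (0.0187) and AAV9.EGFP (0.0480) were kept.

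Perp, the junction gene, went the other way. It was at 37.3, 25.01 and 42.9 CPM in v1 livers and at 59.0, 54.0, 58.7 and 48.0 CPM in AAV9.empty livers, which did not overlap. Between v1 and AAV9.empty livers, 37.5% of all genes did not overlap. PBS livers were at 49.8, 38.0, 49.1 and 47.9 CPM and did overlap those of v1. The log2 fold change of v1 was -0.64 (SE 0.16, adjusted p = 0.0180, edgeR) against AAV9.empty and -0.39 (SE 0.17, adjusted p = 0.127) against PBS. The first was lost without AAV9.empty replicate 1 (adjusted p = 0.0521) or replicate 3 (0.0507). The second was called without v1 replicate 3 (0.0376). AAV9.EGFP, v2 and E332K livers differed from AAV9.empty by 0.01, -0.03 and 0.14, with 95% intervals between -0.25 and 0.36.

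**Figure D3:**
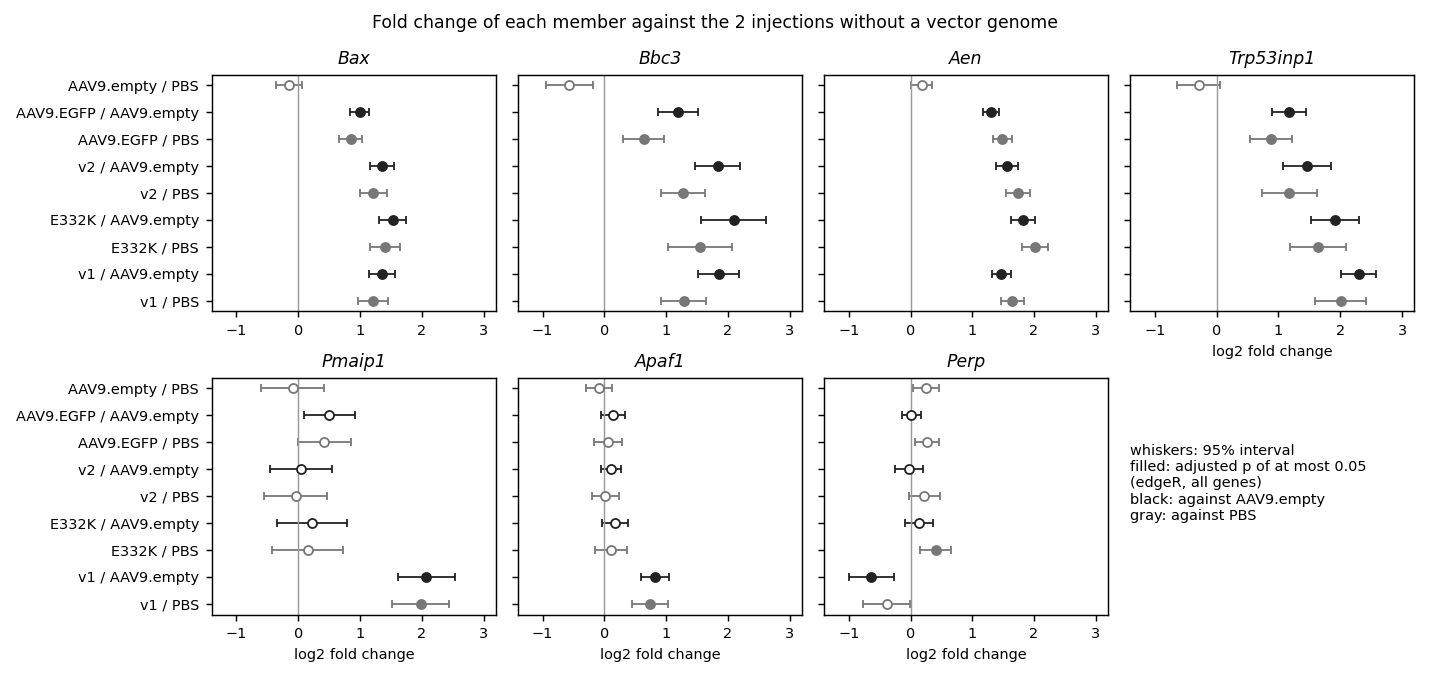
Log2 fold change of each member (horizontal axis) with its 95% interval, for AAV9.empty against PBS and for each vector with a genome against AAV9.empty (black) and against PBS (gray). Filled points passed an adjusted p of 0.05. All 8 points of Bax, Bbc3, Aen and Trp53inp1 for vectors with a genome are filled and above 0, and both points of Pmaip1 and Apaf1 are filled for v1.

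The vectors were then compared with each other, which tests directly whether a member differed between them. Against AAV9.EGFP, v1 had 6 of 7 members called (27.8% of all genes): Bax, Bbc3, Pmaip1, Trp53inp1 and Apaf1 higher and Perp lower. Against v2 it had 4 (23.4% of all genes), with Pmaip1, Trp53inp1 and Apaf1 higher and Perp lower. Against the E332K vector it had 3 (19.6% of all genes), with Pmaip1 and Apaf1 higher and Perp lower. Of the differences from AAV9.EGFP, v2 and E332K, those of at least 2-fold were 2 (Pmaip1 and Trp53inp1, beside 7.62% of all genes), 1 (Pmaip1, beside 7.06%) and 1 (Pmaip1, beside 6.94%).

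Pmaip1 gave the clearest of these differences. It was 2.94-fold higher with v1 than with AAV9.EGFP, 4.12-fold higher than with v2 and 3.63-fold higher than with the E332K vector, with adjusted p (edgeR) of 0.000446, 0.000548 and 0.00403. These 3 calls were kept whichever liver was left out. Apaf1 was 1.59-fold, 1.67-fold and 1.57-fold higher, with adjusted p of 0.00451, 0.00307 and 0.0153. Its difference from the E332K vector was lost without E332K replicate 1 (adjusted p = 0.0546) or replicate 3 (0.0609), and with limma on log2(TPM + 1) it was lost against v2 (0.136) and E332K (0.162). Perp fell by 0.66, 0.59 and 0.76 on the log2 scale, with adjusted p (edgeR) of 0.0120, 0.0396 and 0.0266. The difference from AAV9.EGFP was kept in all fits with 1 liver left out. That from v2 was lost in 6 of 7, all but the one without v1 replicate 3, and that from the E332K vector in 4 of 6, without v1 replicate 1 or E332K replicate 1, 2 or 3.

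The genes raised by every vector with a genome were compared in the same way. Against AAV9.EGFP, v1 livers were 1.27-fold higher in Bax (adjusted p = 0.0107, edgeR) and 1.56-fold higher in Bbc3 (adjusted p = 0.0125). Against v2, v1 livers had nearly the same level of Bax (log2 fold change 0.01, 95% interval -0.22 to 0.24), Bbc3 (0.03, -0.36 to 0.43) and Aen (-0.07, -0.29 to 0.14). Trp53inp1 was 1.80-fold higher with v1 than with v2 (adjusted p = 0.0166, edgeR) and 2.18-fold higher than with AAV9.EGFP (adjusted p = 0.000809). Against the E332K vector its difference of 0.40 had an adjusted p of 0.192, and of 0.0360 without E332K replicate 2. Aen was lower with v1 than with the E332K vector (0.790-fold, adjusted p = 0.0591, edgeR), which missed the threshold. These groups did not overlap, as was so for 42.9% of all genes.

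AAV9.EGFP raised the 4 genes the least of the 4 vectors by mean level. The E332K vector was above it for all 4 (4 of 7 members called, 7.9% of all genes): Bax 1.45-fold, Aen 1.44-fold, Bbc3 1.87-fold and Trp53inp1 1.68-fold, none of them by 2-fold (1.85% of all genes). Bax and Aen, with adjusted p (edgeR) of 0.00385 and 0.00325, were called whichever liver was left out. Bbc3 (0.0367), whose groups overlapped, was lost in 6 of 7 such fits, all but the one without E332K replicate 1, and Trp53inp1 (0.0247) in 4 of 7, without AAV9.EGFP replicate 1, 3 or 4 or E332K replicate 2. Without E332K replicate 2 the log2 fold change of Bbc3 went from 0.90 to 0.56 and that of Trp53inp1 from 0.75 to 0.47. Between v2 and AAV9.EGFP edgeR called 0 of 7 (0.33% of all genes), and DESeq2 called 2, Bax and Bbc3 (385 of 25285 genes). In this comparison 4 members, Bax, Bbc3, Aen and Pmaip1, did not overlap, as was so for 8.89% of all genes. Bax had a log2 fold change of 0.36 (95% interval 0.19 to 0.53, adjusted p = 0.0732, edgeR). Between the E332K vector and v2 edgeR called 0 of 7 (1.86% of all genes), and DESeq2 called 0. Aen had a log2 fold change of 0.28 there (95% interval 0.045 to 0.505, adjusted p = 0.2605, edgeR).

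**Figure D4:**
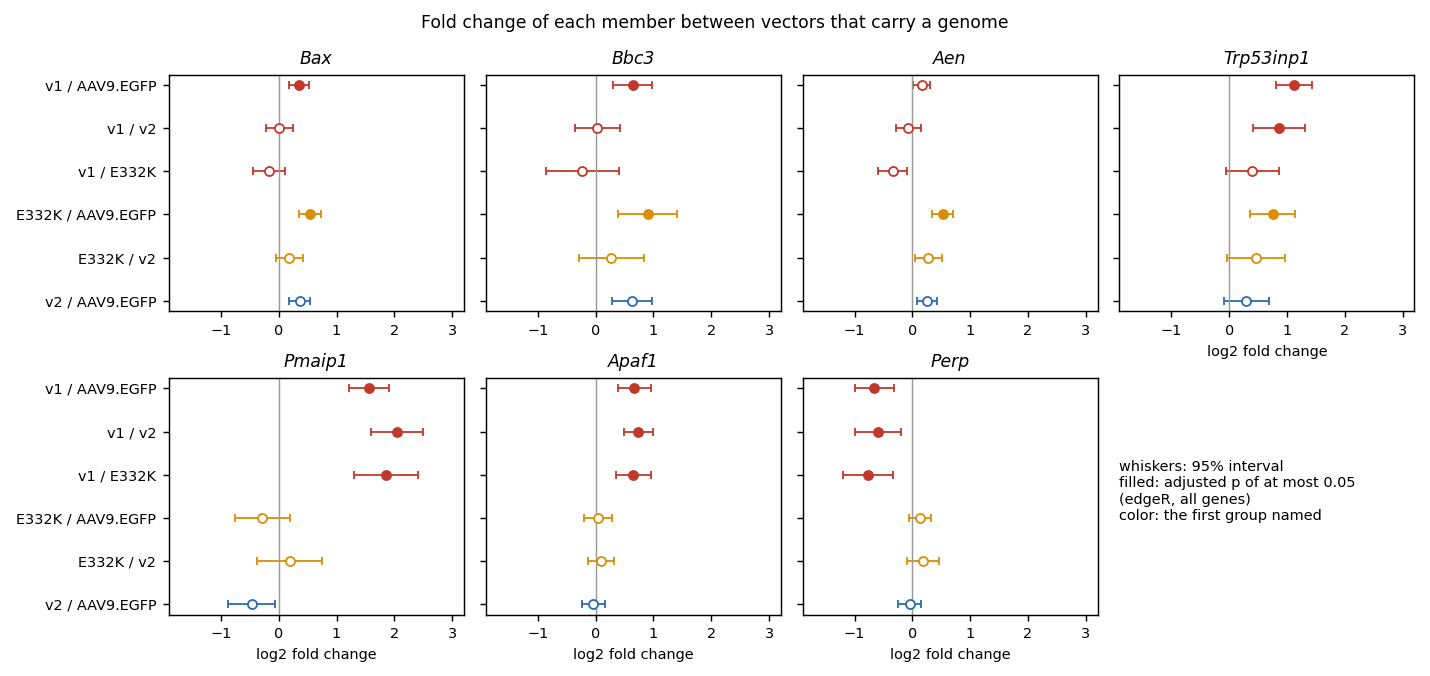
Log2 fold change of each member (horizontal axis) with its 95% interval in the 6 comparisons between vectors with a genome, colored by the first group named. Filled points passed an adjusted p of 0.05. The 3 comparisons of v1 (red) are filled above 0 for Pmaip1 and Apaf1 and below 0 for Perp.

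Ordered by mean CPM, the groups formed a step for each of the 4 shared genes. For Bax, AAV9.empty and PBS came first, followed by AAV9.EGFP, v1, v2 and E332K, and the steps from PBS to AAV9.EGFP and from AAV9.EGFP to v1 were called while those within the last 3 were not. For Aen only the step from AAV9.empty to AAV9.EGFP was called, and for Bbc3 and Trp53inp1 only that from PBS to AAV9.EGFP. Trp53inp1 ended with v1 and not with E332K. For Pmaip1 and Apaf1 only the last step, to v1, was called. No step between neighbours was called for Perp.

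Other features of the livers moved with v1. Its 12 hepatocyte markers summed to 95385 to 113615 CPM, below the 135661 to 160490 CPM of AAV9.empty, and 11 of the 12 were called lower and 1 (Fgb) higher. Its T and NK cell markers summed to 88.8 to 105 CPM against 39.9 to 55.8 CPM, with 5 of the 8 tested called higher. Neutrophil markers summed to 2628 to 2911 CPM against 1752 to 1909 CPM, with 10 of 11 called higher, and cholangiocyte and epithelial markers to 1231 to 2014 CPM against 832 to 910 CPM, with 6 of 10 called higher and 1 lower. With AAV9.EGFP, in which Bax, Bbc3, Aen and Trp53inp1 were raised, none of the markers of these 4 lists was called against AAV9.empty, and its hepatocyte markers summed to 143464 to 157995 CPM. With v2 1 marker of these 4 lists was called, Krt8, which was lower. With the E332K vector 3 hepatocyte and 4 cholangiocyte and epithelial markers were lower, 2 T and NK cell markers were higher, and of the neutrophil markers 5 were higher and 1 lower. Of 11 Kupffer cell and monocyte markers, 4 were lower with v2, 3 lower and 1 higher with E332K, and 4 lower and 3 higher with v1. Of 10 sinusoidal endothelial markers, 3 were lower with v2, 1 lower and 1 higher with E332K, and 5 lower and 2 higher with v1. Of 9 stellate cell markers, 4 were lower with E332K, and 1 was lower and 1 higher with v1. Of 11 erythroid markers, 1 was higher with v2, 2 with E332K and 3 with v1. None of these 4 lists had a marker called with AAV9.EGFP against AAV9.empty. The shares of all genes called against AAV9.empty were 0.442%, 5.38%, 15% and 28.1% with AAV9.EGFP, v2, E332K and v1. Against PBS, AAV9.EGFP livers were higher in the stellate markers Reln, Lrat and Pdgfrb, the endothelial marker Lyve1 and the T and NK cell marker Gzma. They were lower in the erythroid marker Klf1. The part of these other cells in the members' levels was not tested.

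Presence of Gm47283 counts could be added as a covariate where a comparison held both kinds of library. For v1 against AAV9.empty, Bax (1.40), Bbc3 (1.74), Aen (1.40), Trp53inp1 (2.13) and Pmaip1 (1.75) kept log2 fold changes with an adjusted p (edgeR) of at most 0.0278. Apaf1 (0.76, adjusted p = 0.0504) and Perp (-0.44, adjusted p = 0.318) no longer passed. Their standard errors were 0.17 and 0.24, beside 0.10 and 0.16 without the covariate. Only 1 AAV9.empty liver lacked these counts, as all v1 livers did, so the covariate fit of these groups rests on that liver. For v1 against v2, Pmaip1 (2.25), Apaf1 (0.79) and Trp53inp1 (0.54) kept their calls and Perp did not (-0.50, adjusted p = 0.158, edgeR). For v1 against AAV9.EGFP all 6 members kept theirs, among them Apaf1 (0.60, adjusted p = 0.0131) and Perp (-0.66, adjusted p = 0.0307). Against AAV9.empty, Bax, Bbc3, Aen and Trp53inp1 kept their calls with AAV9.EGFP, v2 and the E332K vector. Against PBS with AAV9.EGFP, Bbc3 (0.80, SE 0.23, adjusted p = 0.132) and Trp53inp1 (0.79, SE 0.25, adjusted p = 0.170) no longer passed, beside 0.63 (SE 0.15) and 0.88 (SE 0.16) without the covariate. In the comparison of the E332K vector with AAV9.EGFP none of the 4 members passed, with log2 fold changes of 0.55 for Bax, 0.73 for Bbc3, 0.47 for Aen and 0.84 for Trp53inp1, beside 0.54, 0.90, 0.52 and 0.75 without the covariate. Their standard errors with it were 0.16, 0.37, 0.15 and 0.29, beside 0.09, 0.24, 0.09 and 0.18 without it. Only 1 AAV9.EGFP liver had Gm47283 counts, so the covariate fits of AAV9.EGFP with PBS and with the E332K vector rest on that liver. All v1 livers lacked these counts and all PBS and E332K livers had them, so v1 and Gm47283 cannot be told apart in the comparisons of v1 with PBS and with the E332K vector.

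The rest of the pathway was read from lists of other genes. Counts in these lists against AAV9.empty stand beside 0.442%, 5.38%, 15% and 28.1% of all genes called with AAV9.EGFP, v2, E332K and v1. Trp53 itself, singled out after its values were seen, was not called against AAV9.empty with any vector: its log2 fold change was -0.19 with AAV9.EGFP, -0.13 with v2, -0.24 with E332K and 0.22 with v1. It was higher with v1 than with AAV9.EGFP (0.40, adjusted p = 0.0253, edgeR) and the E332K vector (0.46, adjusted p = 0.0452). Among 13 genes of p53 and its regulators, Ccng1 and Mdm2, both p53 targets that restrain p53, were higher with all 4 vectors. Mdm2 was at 25.1 ± 0.874 CPM in AAV9.empty livers and 1.60-fold, 1.77-fold, 2.07-fold and 2.45-fold higher with AAV9.EGFP, v2, E332K and v1. Counts against AAV9.empty were 2 higher with AAV9.EGFP, 3 with v2 (with Mdm4), 3 higher and 3 lower with E332K and 4 with v1. The 3 lower genes were the DNA damage kinases Atm, Atr and Chek1, and Atm had the smallest adjusted p of them (0.00156, log2 fold change -0.93).

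Of 16 measured p53 targets of arrest and repair, 4 were higher with AAV9.EGFP, 6 with v2, 8 with E332K and 9 with v1, where 1 (Sesn1) was lower. Cdkn1a, the gene of the cyclin-dependent kinase inhibitor p21, had the smallest adjusted p of the list with each vector: from 28.5 ± 2.77 CPM in AAV9.empty livers (n = 4), it was 4.51-fold, 5.53-fold, 8.35-fold and 6.84-fold higher. Among 17 other proapoptotic p53 targets, 4, 7, 8 and 5 were higher, and 1 was lower with v2 (Trp53i11) and 1 with v1 (Steap3). The receptor genes Eda2r and Tnfrsf10b and the AKT inhibitor gene Phlda3 were higher with all 4 vectors. Phlda3 was 6.28-fold, 9.005-fold, 16.3-fold and 8.23-fold higher than the 4.61 ± 1.11 CPM of AAV9.empty livers. Over these 17 genes the median log2 fold change was 0.10, 0.25, 0.34 and 0.20 with AAV9.EGFP, v2, E332K and v1, beside medians of all genes of at most 0.02.

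The BCL2 family members that oppose BAX and the BH3-only proteins were called against AAV9.empty with v1 and not with the other vectors. None of the 6 or 7 antiapoptotic genes tested was called against AAV9.empty with AAV9.EGFP, v2 or E332K, and with v1 5 of 7 were higher: Bcl2a1a, Bcl2a1b, Bcl2a1d, Mcl1 and Bcl2l1. In the direct comparisons of v1 with AAV9.EGFP, v2 and E332K, 4, 5 and 5 of the 7 were higher, beside 27.8%, 23.4% and 19.6% of all genes called. Mcl1, the main antiapoptotic partner of NOXA, was at 167 ± 6.16 CPM in AAV9.empty livers (n = 4) and at 240.3 ± 39.5 CPM in v1 livers (n = 3), with a log2 fold change of 0.54 (adjusted p = 0.00605, edgeR). It was also higher in v1 than in AAV9.EGFP (0.46), v2 (0.61) and E332K (0.58) livers, each called. The Bcl2a1 genes are near-identical copies whose reads may be divided between them, so their single values are uncertain. They also varied widely between v1 livers (n = 3): Bcl2a1a 6.85 ± 4.91, Bcl2a1b 14.5 ± 9.86 and Bcl2a1d 6.83 ± 6.37 CPM. Neutrophil markers were higher in the same livers, and which cells carried the Bcl2a1 counts was not tested. Of 7 other proapoptotic BCL2 family genes, Bcl2l11, which encodes BIM and also counts among the p53 targets above, was higher with v1 (1.497-fold against AAV9.empty) and Bik lower (0.356-fold), and none was called against AAV9.empty with the other vectors. Against PBS, Bik was lower with v1, and Bid and Bik were lower with the E332K vector. Of 10 genes of the apoptosome and caspases, Diablo was higher with E332K, and Birc3 and Xiap, both inhibitors of apoptosis, were higher with v1. With v1 the called share of the apoptosome list and of the other proapoptotic BCL2 list was near or below the 28.1% of all genes. That of p53 and its regulators, 4 of 13, was also near it.

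**Figure D5:**
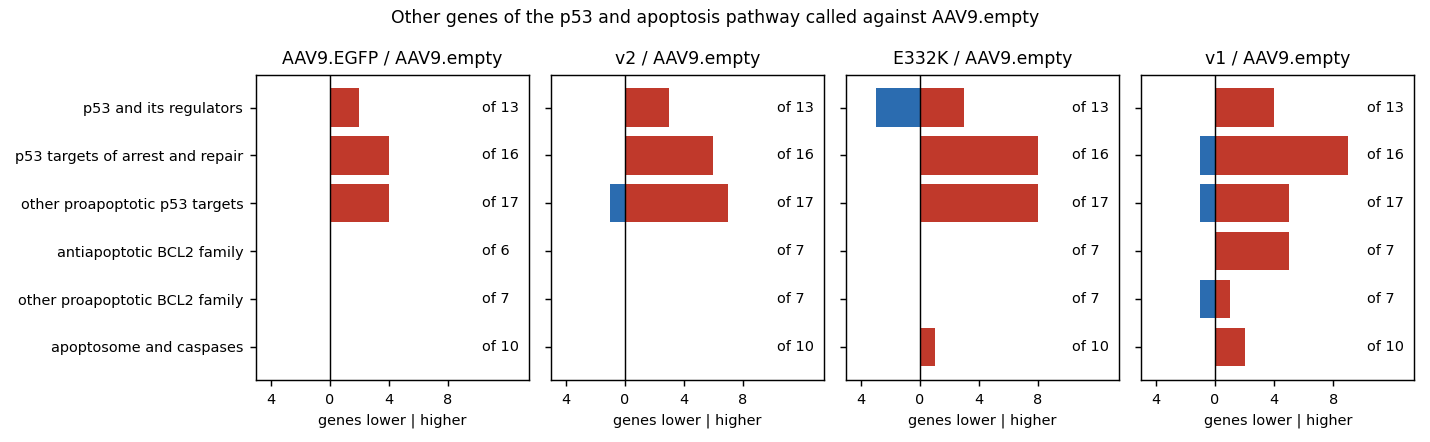
Number of genes called higher (red, to the right of 0) and lower (blue, to the left) against AAV9.empty in 6 lists of other p53 and apoptosis genes, with the number tested at the right of each bar. The 3 lists around p53 have higher genes with all 4 vectors, and the antiapoptotic BCL2 list with v1 alone, 5 of 7.

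Over the 22 livers the members fell into sets by their levels, which mainly reflect differences between groups. Bax and Aen had a Pearson correlation of 0.97, Bax and Bbc3 0.91 and Pmaip1 and Apaf1 0.88, while Perp had -0.70 with Pmaip1 and -0.71 with Apaf1. Within groups, after group means were taken away, the 21 pairs of members lay between -0.59 and 0.51. Of 13510 other genes, the one most like the mean of the 7 members was Eda2r (r = 0.97), followed by Tnfrsf10b (0.96), Mdm2 (0.95), Cdkn1a (0.94), Zmat3 (0.94), Snhg15 (0.94), Ccng1 (0.94), Polk (0.93), Inka2 (0.92) and Phlda3 (0.92). The points share groups and libraries, and within groups the same 10 correlations lay between -0.14 and 0.36.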

How the data were processed

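Liver mRNA was enriched with oligo(dT) and made into NEBNext Ultra libraries, with no strand setting given. Per the labels and the study's methods, the authors trimmed reads with Trimmomatic, aligned them with STAR to mm10 and quantified genes with RSEM on GENCODE transcripts. They deposited expected counts and TPM per gene for 22 livers. Versions and the GENCODE release are not given in the sources used here, and 53292 of the 55291 gene names matched GENCODE vM21, which was used for positions.

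Expected counts were rounded to whole numbers. Each comparison was fitted on its 2 groups with edgeR 4.0.16 (TMM, filterByExpr defaults, quasi-likelihood F-test) in R 4.3.3, and p-values were adjusted by Benjamini-Hochberg over the genes tested in it. A member was called at an adjusted p of at most 0.05 in either direction. Intervals are 95% and come from the fit. CPM used TMM factors over all 22 libraries. Library totals were 17164502 to 24305788 counts. The fits were tested on simulated data.

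Alternatives were median-of-ratios size factors, DESeq2 1.42.0, other filters, all groups in one fit, a replicate block, limma 3.58.1 on log2(TPM + 1) and log2(TPM + 0.1), a 2-fold limit, Gm47283 as a covariate and leaving out each liver. Named genes were all 7 members, up to 4 called genes of smallest adjusted p in each list and comparison, the 10 genes most like the members' mean, and, outside that rule and after their values were seen, genes that make up small counts. Members and lists were chosen with earlier results of these data known. Replicate numbers were not taken as pairs: same-numbered livers' deviations correlated between -0.394 and 0.493, over 0.1 in 12 of 51 pairs. Expression of the transgenes was not analysed here.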

Additional observations from a re-analysis of the deposited data

Results flagged for a closer look

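One value stood apart within its group. Perp was at 38.0 CPM in PBS replicate 2, and the other 3 PBS livers lay between 47.9 and 49.8 CPM. The gap to the nearest liver was 0.842 of the range of the group, above the limit for 4 values. Of the 28 groups of 4 livers examined over the 7 members this was the only one past it, and chance gives about 1 in 20. Perp against PBS rests in part on this liver: without it the log2 fold change of the E332K vector against PBS went from 0.41 to 0.30, and its adjusted p (edgeR) from 0.0386 to 0.132.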

How the results depend on the processing

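The counts of called members given next moved by more than 1.5 times, or to or from 0, and mostly fell. On limma with log2(TPM + 1), log2(TPM + 0.1) and log2(TPM + 1) without a filter, it went from 4 to 2, 2 and 2 for AAV9.EGFP against PBS and for v2 against PBS, from 5 to 3, 3 and 2 for E332K against PBS, from 4 to 2, 2 and 1 for E332K against AAV9.EGFP, from 4 to 2, 2 and 2 for v1 against v2 and from 3 to 1, 1 and 1 for v1 against E332K. With a 2-fold limit it went to 1 for AAV9.EGFP against PBS, 0 for E332K against AAV9.EGFP, 2 from 6 for v1 against AAV9.EGFP, 1 for v1 against v2 and 1 for v1 against E332K. DESeq2 called 2 in place of 0 for v2 against AAV9.EGFP. With Gm47283 as a covariate it went to 2 for AAV9.EGFP against PBS and 0 for E332K against AAV9.EGFP, and that fit could not be made for v1 against PBS, v1 against E332K or E332K against PBS. With 1 liver left out it ranged from 2 to 4 for E332K against AAV9.EGFP and from 1 to 3 for v1 against E332K. The cause was not tested beyond what the 2-fold limit itself sets. Smaller moves under limma, the 2-fold limit, the covariate, DESeq2, the mean count filter and the fit of all groups included 7 to 5 for v1 against AAV9.empty (limma, the 2-fold limit and the covariate), 4 to 3 for AAV9.EGFP against PBS, 5 to 4 for E332K against PBS and 6 to 7 for v1 against PBS (all groups in one fit).

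With a replicate block, v1 against v2 had 3 called members in place of 4, and no other count moved. The livers share only a number. Median-of-ratios size factors changed no call of a single member. Over all alternatives, 69 of 1904 member values changed sign, and all 69 were called in neither fit. Pmaip1 with v1 kept its call on TPM in every comparison. On TPM, the all-gene median (log2) moved by more than 0.1 in some comparisons, at most by 0.20 (v1 against v2 and v1 against E332K), so fold changes on TPM are relative to that shift. Bbc3 and Pmaip1 were the scarcest members by CPM, and each comparison rests on 3 or 4 livers a group.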
